A study of Mus musculus with 12 samples.

Results

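NMDA receptors are glutamate-gated cation channels that let calcium into the postsynaptic neuron when glutamate and a co-agonist, glycine or D-serine, are bound and the membrane is depolarized. Each receptor joins the obligatory GluN1 subunit with GluN2 or GluN3 subunits, and the partner sets how long the current lasts and how strongly magnesium blocks it. In the rodent forebrain GluN2B, GluN2D and GluN3A are prominent around birth and in juvenile animals, and GluN2A becomes prominent as the cortex matures. The family comprises 7 genes named here by symbol, Grin1, Grin2a, Grin2b, Grin2c, Grin2d, Grin3a and Grin3b, of 18820 genes carried by single-gene probe sets in the series. Of these 7 genes, 5 had a probe set of their own, exactly 1 each. Grin3b shared both of its probe sets with Tmem259 and is given no value, and Grin1 carried no probe set under its symbol, gene identifier or RefSeq accessions in the platform annotation and was not analysed here.

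The medial prefrontal cortex of adult C57BL/6N mice, aged 12 weeks, was compared between offspring of mothers given poly(I:C), an artificial double-stranded RNA used as a viral mimic, and offspring of mothers given saline. Poly(I:C) was injected intravenously at 5 mg/kg on gestation day 17, and the control injection was made by the same route on the same day. There were 6 control and 6 poly(I:C) offspring with 1 array each, and the labels describe behavioral testing of adult offspring before the cortex was taken. Litter and sex are not named in the labels used here, so the tests rest on the spread between animals that may include littermates.

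The median log2 value of an array was 5.15 to 5.21. Over all 23099 probe sets with a gene, 653 or 2.83% differed between groups at a limma adjusted p under 0.05, 467 higher and 186 lower after poly(I:C) as deposited. After quantile normalization 524 were called, 239 higher and 285 lower. The tissue label was checked against marker genes: Slc17a7, the vesicular glutamate transporter of cortical excitatory neurons, had a mean log2 value of 10.81 ± 0.07 in controls and 10.81 ± 0.04 in poly(I:C) offspring (SD, n = 6). Markers of striatal projection neurons were measurable too, and their mean level was highest in control 5 (6.91) and control 6 (6.76) against 6.31 to 6.54 in the other controls and 6.26 to 6.42 after poly(I:C).

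None of the 5 measured subunit genes passed the adjusted threshold after prenatal poly(I:C), against 2.83% of all probe sets (2.02% higher and 0.805% lower). Grin2a, the mature GluN2 subunit, had the largest difference among them, 1.10-fold higher on average. It was the only 1 of the 5 members with an unadjusted p under 0.05, beside 19.1% of all probe sets. Grin2c and Grin2b had slightly higher means and Grin2d and Grin3a slightly lower ones, with intervals that include 0. The median log2 difference of the 5 genes was 0.044, beside 0.0030 over all probe sets tested. All 5 genes lay above the array median in all 12 arrays. Over the 11550 probe sets with a mean at or above the 50th percentile the median difference was 0.026. No member had groups that did not overlap, a pattern seen in 2.37% of all probe sets.

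**Figure D1:**
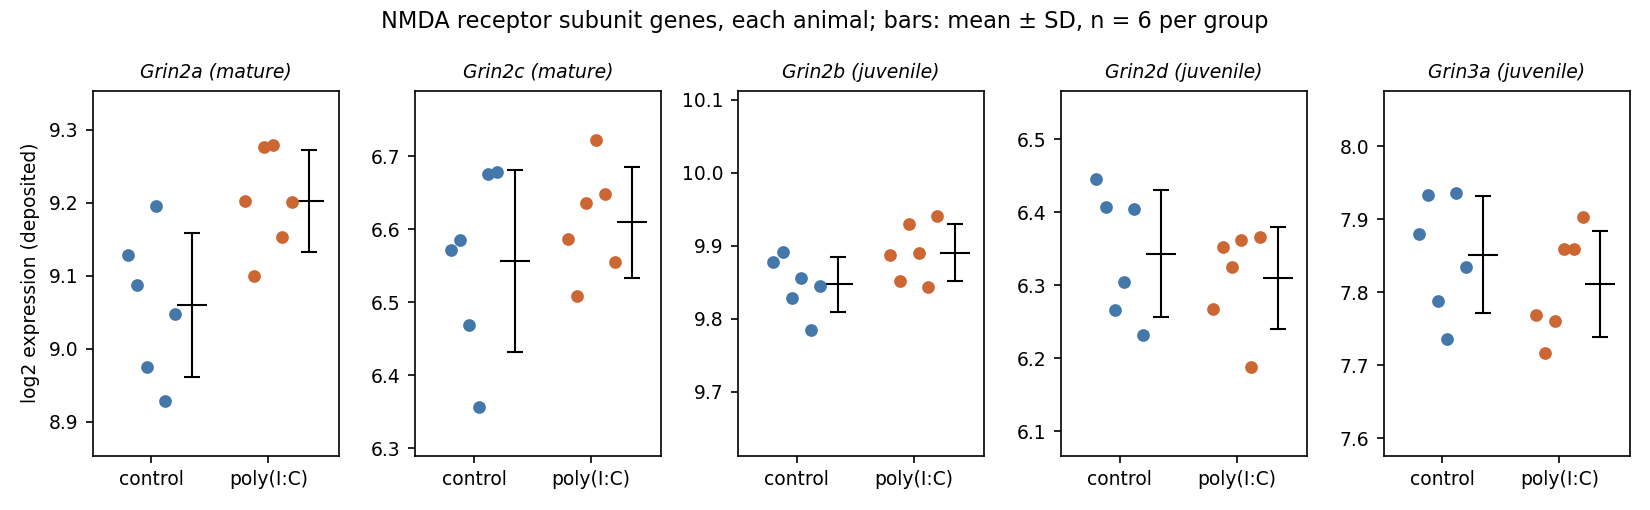
Log2 expression of the 5 measured NMDA receptor subunit genes in each animal (points; controls left, poly(I:C) right), with the group mean ± SD at the side; each panel spans the same range on the log2 axis. For Grin2a 4 of 6 poly(I:C) animals lie above the highest control, and for the other genes the groups largely overlap.

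Among the subunits of the mature brain, Grin2a (probe set 10437629) encodes GluN2A, which shortens receptor currents as cortical synapses mature. Its log2 values were 9.13, 9.09, 8.97, 9.20, 8.93 and 9.05 in controls 1 to 6. In poly(I:C) animals 1 to 6 they were 9.20, 9.10, 9.28, 9.28, 9.15 and 9.20. All 6 poly(I:C) animals were above the control mean and 4 above the highest control, while controls 1 and 4 lay within the poly(I:C) range. The means were 9.06 ± 0.10 and 9.20 ± 0.07 (SD, n = 6 each), a log2 difference of 0.14 ± 0.05 (SE) with a 95% interval of 0.045 to 0.24. In the limma fit the unadjusted p was 0.0066 and the adjusted p 0.097, so Grin2a did not pass, and 6.76% of all probe sets had an unadjusted p at or under that value. The adjusted p was 0.0497 without control 4 and lay between 0.063 and 0.19 without any other single animal.

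In bulk tissue a different share of cells of a type and a different amount of RNA per cell cannot be told apart. Several marker lists moved with the groups in which Grin2a differed, and their part in its difference was not tested. Of 19 measured genes listed for nuclear or detained-intron transcripts (with introns left unspliced in the nucleus), 9 rose and none fell. Their mean levels were 7.86 to 8.07 in controls and 8.10 to 8.36 after poly(I:C). Splicing and place in the cell were not measured. Of 13 striatal markers 1 fell (Ppp1r1b), and all 13 had lower means. Control 5, with the highest striatal level, also had the lowest Grin2a value. Without controls 5 and 6 the Grin2a difference was 0.11 ± 0.05 (adjusted p = 0.24 in limma). Of 12 oligodendrocyte markers 5 fell and none rose, with mean levels of 7.35 to 7.75 in controls and 6.98 to 7.48 after poly(I:C), and of 8 precursor markers 1 rose (Pcdh15) and 7 did not pass, all with lower means (list median -0.078). Among 9 microglial and 8 endothelial markers none passed in limma, and at an unadjusted p under 0.05 there was none either. Of 14 measured markers of excitatory neurons 1 fell (Bcl11b) and 13 did not pass, with mean levels of 8.51 to 8.62 in controls and 8.56 to 8.62 after poly(I:C).

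Grin2c (probe set 10392863) encodes GluN2C, known from cerebellar granule cells and, in the forebrain, from astrocytes. Its control values ran from 6.36 through a median of 6.58 to 6.68, and its poly(I:C) values from 6.51 through 6.61 to 6.72. The groups overlapped over most of their range, and only poly(I:C) animal 4 was above the highest control. The log2 difference was 0.053 ± 0.052 (SE; 95% interval -0.058 to 0.16; limma adjusted p = 0.62). Control 4, the lowest animal, weighed on it: without that animal the difference was 0.014, and without poly(I:C) 4, the highest, it was 0.031. Other omissions raised it, to 0.077 without control 5 and 0.078 without control 6. Without controls 5 and 6 together it was 0.11 ± 0.05 (SE; limma adjusted p = 0.24), close to the Grin2a difference in that run. Of 11 measured astrocyte markers none passed in limma, and none had an unadjusted p under 0.05. Their mean levels were 8.29 to 8.42 in controls and 8.29 to 8.39 after poly(I:C).

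Of the subunits of the juvenile brain, Grin2b (probe set 10548791) encodes GluN2B, whose receptors give longer currents and bind the kinase CaMKII strongly. It was the least variable member, with an SD of 0.038 among controls and 0.039 among poly(I:C) animals. Its control values ran from 9.78 through a median of 9.85 to 9.89, and its poly(I:C) values from 9.84 through 9.89 to 9.94. Poly(I:C) animals 3 and 6 were above every control, and 5 of 6 were above the control mean. The log2 difference was 0.044 ± 0.030 (SE; 95% interval -0.020 to 0.11; limma adjusted p = 0.45), so the interval leaves room for at most a 1.08-fold higher level and a fall to 0.986 of the control level.

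Grin2d (probe set 10563421) encodes GluN2D, whose receptors deactivate very slowly and which in the adult cortex is found mainly in interneurons. Its control values ran from 6.23 through a median of 6.36 to 6.44, and its poly(I:C) values from 6.19 through 6.34 to 6.37. Only poly(I:C) animal 5 was below the lowest control, and 3 of 6 were below the control mean. The log2 difference was -0.033 ± 0.043 (SE; 95% interval -0.12 to 0.058; limma adjusted p = 0.72). It was -0.0089 without poly(I:C) 5, -0.013 without control 1, -0.020 without control 2, -0.021 without control 5 and -0.056 without control 6. Of 16 measured interneuron markers none passed in limma, and 10 had lower means (list median -0.048). At an unadjusted p under 0.05 there were 4 lower and 1 higher, or 5 of 16, beside 19.1% of all probe sets, and the mean levels were 7.44 to 7.66 in controls and 7.42 to 7.53 after poly(I:C).

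Grin3a (probe set 10512919) encodes GluN3A, which binds glycine in place of glutamate and lowers the calcium permeability of receptors that contain it. Its control values ran from 7.74 through a median of 7.86 to 7.94, and its poly(I:C) values from 7.72 through 7.81 to 7.90. Poly(I:C) animal 2 was below every control, none was above the highest, and 3 of 6 were below the control mean. The log2 difference was -0.040 ± 0.042 (SE; 95% interval -0.13 to 0.049; limma adjusted p = 0.65). It was -0.021 without poly(I:C) 2, -0.023 without control 2 or control 5 and -0.063 without control 4.

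**Figure D2:**
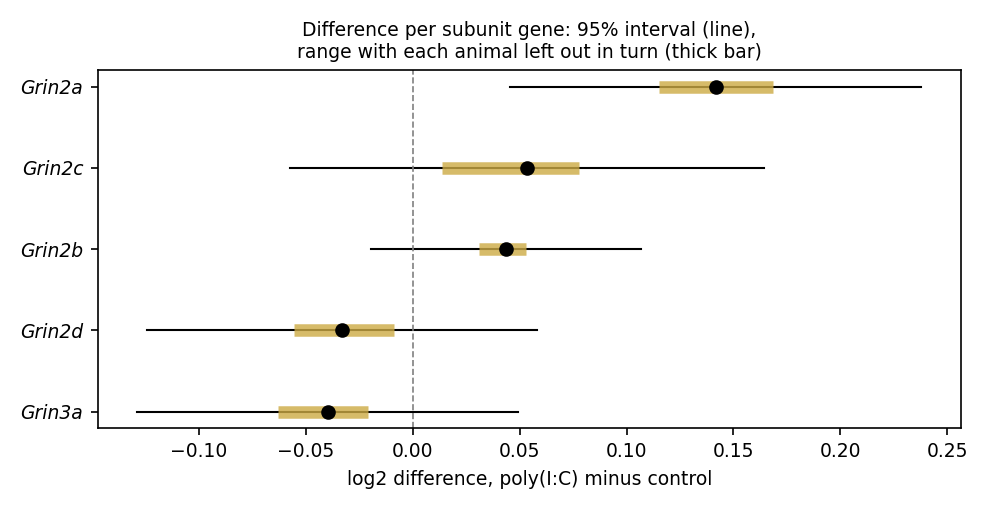
Log2 difference, poly(I:C) minus control, for each measured subunit gene (points) with its 95% interval in limma (thin lines) and the range of the difference when each of the 12 animals is left out in turn (thick bars). The interval of Grin2a runs from 0.045 to 0.24, while those of the other 4 genes include 0, and the sign of no gene changed when 1 animal was left out.

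The exchange of juvenile for mature subunits was examined as the difference between the 2 forebrain GluN2 genes within each array. Levels of different probe sets cannot be set against each other, so only the shift of Grin2b minus Grin2a between groups is informative. In controls 1 to 6 it was 0.749, 0.803, 0.854, 0.660, 0.856 and 0.797 on the log2 scale. In poly(I:C) animals 1 to 6 it was 0.684, 0.752, 0.653, 0.610, 0.691 and 0.739. All 6 poly(I:C) animals were below the control mean and 2 below the lowest control, with controls 1 and 4 lying among the poly(I:C) animals. The means were 0.79 ± 0.07 and 0.69 ± 0.05 (SD, n = 6), a shift of -0.098 toward Grin2a (exact permutation p = 0.028 over 924 splits, two-sided). This p is unadjusted, and 19.1% of all probe sets had an unadjusted limma p under 0.05. Grin2b itself was higher by 0.044 and Grin2a by 0.14 (limma adjusted p = 0.097). The shift is therefore not a result separate from the Grin2a difference. An exact permutation p is given for Grin2b minus Grin2a only, without adjustment for the other pairs. Without control 2, 3, 5 or 6 or poly(I:C) 3 or 4, each alone, the shift was -0.082 to -0.096 and the exact permutation p was 0.052 to 0.056, and without controls 5 and 6 together it was -0.078 (exact permutation p = 0.10).

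**Figure D3:**
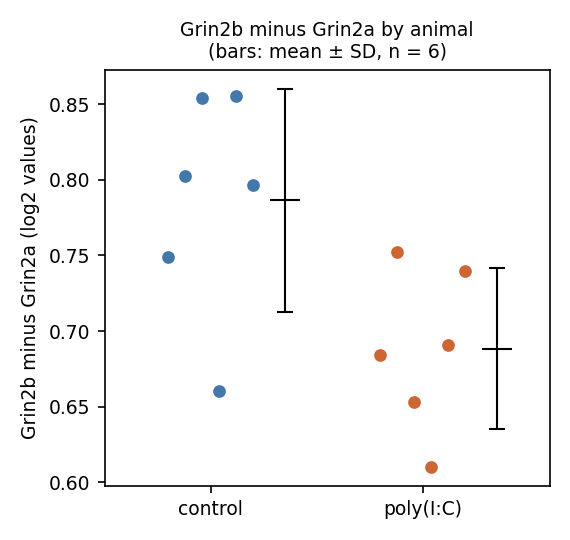
Difference between the log2 values of Grin2b and Grin2a in each animal (points; controls left, poly(I:C) right), with the group mean ± SD; the vertical axis starts above 0. Controls 1 and 4, at 0.749 and 0.660, fall among the poly(I:C) animals, which span 0.610 to 0.752.

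The other juvenile and mature pairs are given as descriptions. Grin2d minus Grin2a shifted by -0.17 and Grin3a minus Grin2a by -0.18, with 6 of 6 poly(I:C) animals below the control mean in both. Both pairs contain Grin2a, the gene with the largest difference. Against Grin2c the shifts were -0.0097 for Grin2b, -0.087 for Grin2d and -0.093 for Grin3a, with 2, 4 and 5 of 6 poly(I:C) animals below the control mean. The mean of the 3 juvenile genes minus that of the 2 mature genes was 0.21 ± 0.05 in controls and 0.098 ± 0.066 after poly(I:C) (log2, SD, n = 6), with 4 of 6 poly(I:C) animals below the lowest control.

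Covariation of the subunit genes across animals was also examined, after each group was centred on its own mean. Grin2a and Grin2b varied most alike, with Pearson r = 0.71 and Spearman rho = 0.69 over 12 animals (exact permutation p = 0.015 and 0.021 within groups, adjusted over 10 pairs 0.15 and 0.21). The r was 0.77 in controls, 0.66 after poly(I:C) and 0.70 without the 2 animals farthest from the median of Grin2a. Grin2c and Grin3a came next, with r = 0.64 and rho = 0.59 (exact permutation p = 0.037 and 0.063, adjusted 0.18 and 0.32). That relation rested on 2 animals, since r was 0.31 without them, and it was 0.79 in controls and 0.42 after poly(I:C). None of the 10 pairs passed after adjustment, and the other 8 had r from -0.18 to 0.39. Some of these values also changed when 2 animals were left out, and differed between the groups. The r of Grin2a and Grin2c was -0.18 over all 12 animals and 0.62 without the 2 animals farthest from the median of Grin2a. In controls it was -0.57 and among poly(I:C) animals 0.72. For Grin2d and Grin3a r was 0.39 over all 12, 0.69 without the 2 farthest animals, 0.70 in controls and -0.043 among poly(I:C) animals, and the difference between groups was not tested.

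**Figure D4:**
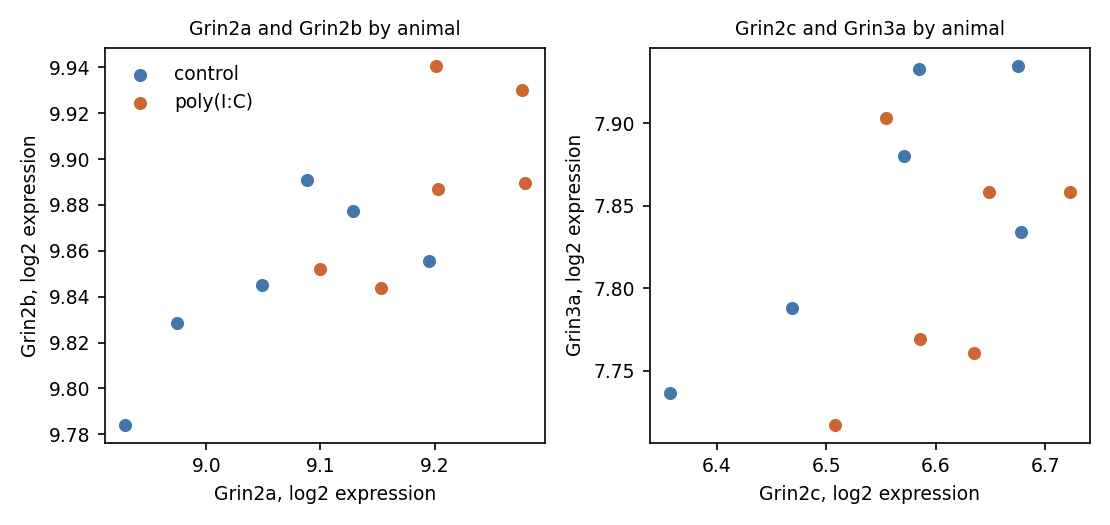
Log2 expression of Grin2b against Grin2a (left) and of Grin3a against Grin2c (right), 1 point per animal, controls in blue and poly(I:C) in orange. The animals low in Grin2a, such as control 5 at 8.93, are low in Grin2b too (9.78).

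The genes most like each member over the 12 animals were picked as the highest Pearson correlations of group-centred values among the 9519 genes at or above the median brightness, so their r is given as a description only. For Grin2a these were the amino acid transporter Slc7a8 (r = 0.92), the kinase Stk39 (0.89) and Ppp3ca, the catalytic subunit of calcineurin, which receptor calcium activates (0.88). For Grin2b they were the cadherin Celsr2 (0.95), the orphan receptor Gpr135 (0.93) and Madd, an exchange factor for Rab3 (0.89). For Grin2c they were Nudt21, a factor of mRNA 3′ end processing (0.94), Acyp2 (0.93) and Sumo3 (0.93). Grin2d varied most like the glypican Gpc6 (0.94), Chst1 (0.92) and Kctd13 (0.91), and Grin3a most like C87436 (0.94), Rtl6 (0.93) and the adhesion receptor Adgrg1 (0.93). Of these 15 genes only Gpc6 rose after poly(I:C) (log2 difference 0.22 ± 0.04 SE, limma adjusted p = 0.011).

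Genes that act on or downstream of the receptor were counted in 6 lists. Of 133 measured genes of 153 listed, 2 rose, none fell and 131 did not pass, a share of 1.5% against 2.83% of all probe sets, of which 2.02% were higher and 0.805% lower. An unadjusted p under 0.05 was reached by 28 of the 133, or 21.1%, beside 19.1% of all. Among probe sets with a mean at or above the 50th percentile it was reached by 25 of 110 pathway genes. That was a smaller share than the 2842 of all 11550 probe sets there. In that set 3 pathway genes passed the adjusted threshold, beside 868 of all. The 2 that rose were Cdk5, a neuronal kinase that phosphorylates GluN2A and regulates the turnover of GluN2B, and Fmr1, the RNA-binding protein lost in fragile X syndrome.

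Kinases and phosphatases of the subunits were measured by 25 genes, of which Cdk5 rose and 24 did not pass. Cdk5 (probe set 10528583) ran from 8.86 through a median of 8.92 to 8.98 in controls and from 9.02 through 9.05 to 9.13 after poly(I:C), with no overlap between groups. Its log2 difference was 0.13 ± 0.03 (SE; 1.10-fold; limma adjusted p = 0.037). The call was lost without control 1, 2 or 3 or poly(I:C) 1, 3, 4 or 5, each alone (adjusted p up to 0.087), and after quantile normalization (0.063) or median centring (0.069). Cdk5r1, the activator of this kinase, differed by -0.022 ± 0.037. Ptpn4, a phosphatase that binds GluN2 tails, differed by 0.11 ± 0.03 (adjusted p = 0.078), with Fyn at 0.0055 ± 0.0297 and Src at -0.030 ± 0.044, both kinases of GluN2 tyrosines. The list median was 0.0097 as deposited and below 0 after median centring (-0.00071) and quantile normalization (-0.015).

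Among 21 measured regulators known for the developmental exchange of subunits, Fmr1 rose and 20 did not pass. Fmr1 (probe set 10599893) ran from 7.78 through a median of 7.79 to 7.83 in controls and from 7.83 through 7.92 to 8.06 after poly(I:C), without overlap. Its log2 difference was 0.14 ± 0.04 (SE; 1.10-fold; limma adjusted p = 0.049), a call that held without poly(I:C) 2 (0.022) but not when any of the other 11 animals was omitted (highest adjusted p 0.097), and that was lost after quantile normalization (0.092) and median centring (0.088). Rest, the repressor known to silence Grin2b as the brain matures, differed by -0.0087 ± 0.0393, and Reln, a secreted protein that promotes the exchange, by 0.039 ± 0.041. Dab1, the adaptor of the reelin receptors, differed by 0.097 ± 0.035 (adjusted p = 0.13), and Grm5, the glutamate receptor that drives the exchange, by 0.048 ± 0.034. The list median was 0.039 as deposited, with 17 of 21 means higher, and 0.0087 with 11 higher after quantile normalization.

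None of the 32 measured scaffold and trafficking genes passed in limma, and 8 had an unadjusted p under 0.05. Such a p was reached by 19.1% of all probe sets, and by 2842 of the 11550 at or above the 50th percentile. The list median was 0.038 as deposited, 0.027 after median centring and 0.012 after quantile normalization. Dlg4, the scaffold PSD-95 that anchors GluN2 tails, differed by 0.026 ± 0.030, Exoc4, an exocyst subunit, by 0.12 ± 0.04 (adjusted p = 0.081), and Cask, a membrane scaffold of receptor transport, by 0.084 ± 0.032 (adjusted p = 0.16). Of 28 calcium effectors none passed, and 7 had an unadjusted p under 0.05, beside the same 19.1% of all probe sets. Their list median was 0.022 as deposited and 0.012 after either rescaling. Ppp3r1, the regulatory subunit of calcineurin, differed by 0.092 ± 0.030 (adjusted p = 0.10) and Rasgrf2, a Ras exchange factor, by 0.14 ± 0.05 (adjusted p = 0.12), while Camk2a, the main kinase bound by GluN2B, differed by 0.014 ± 0.028.

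**Figure D5:**
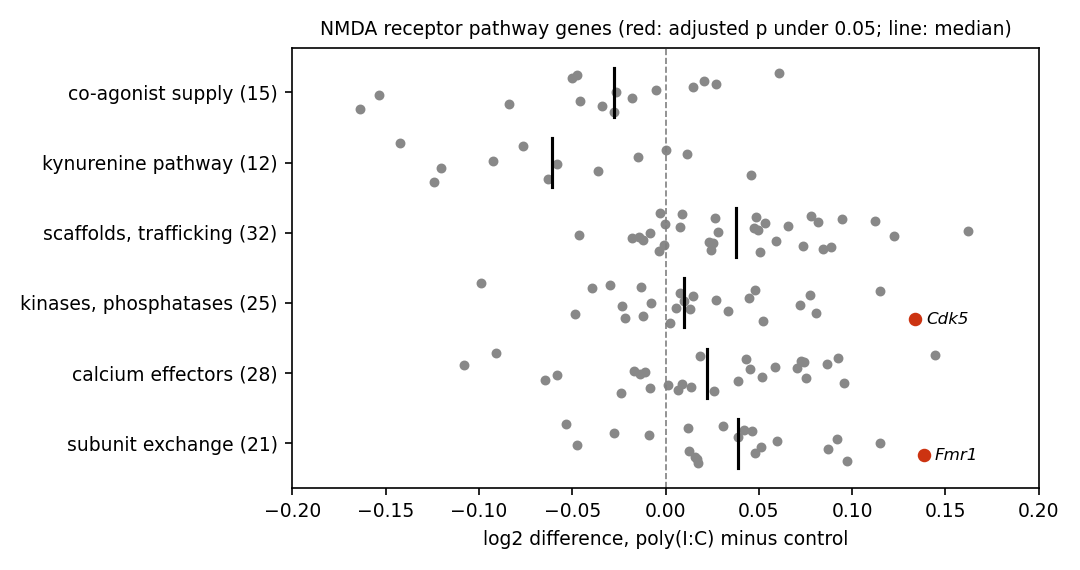
Log2 difference, poly(I:C) minus control, of each measured gene of the 6 receptor pathway lists (grey points; number of genes in brackets), with genes past an adjusted p of 0.05 in red and the list median as a black line. Cdk5 (0.13) and Fmr1 (0.14) are the 2 genes that passed, and the medians of the kynurenine (-0.061) and co-agonist (-0.027) lists lie below 0.

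No gene that sets the ligands of the receptor passed the test, and most had lower means. The co-agonist and kynurenine lists were the dimmest of the 6, with control means of 6.11 and 4.97. The median log2 difference was 0.0030 over all probe sets and 0.026 over those at or above the 50th percentile. The part of brightness in the lower means was not tested. Of 15 measured genes for the synthesis, breakdown and transport of D-serine and glycine, with Ddo for D-aspartate, none passed in limma. An unadjusted p under 0.05 was reached by 2, Psph and Ddo, beside 19.1% of all probe sets. The means of 11 were lower, with a median of -0.027. Psph, the last enzyme of serine synthesis, differed by -0.15 ± 0.05 (adjusted p = 0.083), Ddo, the D-aspartate oxidase, by -0.16 ± 0.06 (adjusted p = 0.15) and Srr, the racemase that makes D-serine, by 0.061 ± 0.034. Of 12 measured kynurenine pathway genes, whose products include an antagonist and an agonist of the receptor, none passed. In this list 3 had an unadjusted p under 0.05, beside 19.1% of all probe sets, with 9 means lower and a median of -0.061. Kmo, which diverts kynurenine from kynurenic acid, differed by -0.093 ± 0.027 (adjusted p = 0.070), and Aadat, which makes kynurenic acid, by -0.12 ± 0.04 (adjusted p = 0.11). Kmo was dim, with a control mean of 3.49, and with Ido1, Tdo2, Kynu and Acmsd it lay below the mean 25th percentile of the arrays, which ran from 3.92 to 3.96.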

How the data were processed

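Total RNA was measured on Affymetrix Mouse Gene 1.1 ST array strips, 1 per animal, per the labels' protocols, where a 3' IVT kit and a whole-transcript kit are both mentioned. The authors deposited 1 log2 value for each probe set and array, as the range from 2.02 to 12.29 and nearly equal array medians show. The submitters' processing notes list RMA and Partek 6.6, with no role or order, and no genome build is given in the sources used here. RMA would compress small differences of dim probe sets.

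Of 35556 probe sets, 23099 carried a gene in the platform annotation, 21218 exactly 1, of which 21185 were matched to RefSeq symbols (GRCm38.p6). Each gene was read from its brightest single-gene probe set. Groups were compared in limma 3.58.1 under R 4.3.3 (lmFit, then eBayes), with Benjamini-Hochberg adjustment over the 23099, and the fit was tested on simulated data. The difference between Grin2b and Grin2a was compared with an exact permutation test (Python 3.11.15). The members, lists and the rule for named genes (all members, genes past the threshold, the lowest 2 p-values of each list) were chosen with earlier results of these data known; further genes named for their role were picked after the values were seen. The number of arrays limits the precision.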

Additional observations from a re-analysis of the deposited data

Results flagged for a closer look

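In 36 groups of 6 animals examined for a single animal far from the rest, 2 held one, where chance gives about 1 in 20 groups. Control 4 had the lowest level of Psph, at 6.13 against 6.34 to 6.42 in the other controls. Without it the Psph difference was -0.20 ± 0.04 (SE) and passed in limma (adjusted p = 0.013). Control 1 had the lowest level of Exoc4 among controls, at 7.79 against 7.85 to 7.88. Neither animal stood apart in this way for any of the 5 measured subunit genes.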

How the results depend on the processing

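Each subunit gene kept the sign of its difference in every alternative run, and none passed except Grin2a without control 4, so that the number of members called was 0 to 1 when an animal was left out. The range of the Grin2a difference was 0.12 to 0.17 when 1 animal was left out and 0.11 to 0.14 otherwise. The number of pathway genes called was 0 to 4 with 1 animal left out; it was 0 with the replicate number as a block, 0 after quantile normalization, 0 after median centring and 0 over all rows of the table, and 1 without variance moderation (Kmo, adjusted p = 0.038) and 1 without controls 5 and 6 (Cdk5). Over all probe sets 230 to 818 were called with 1 animal left out, 122 without variance moderation and 414 over all rows. The Grin2b minus Grin2a shift was -0.12 to -0.082 with 1 animal left out (exact permutation p = 0.0065 to 0.056) and -0.078 without controls 5 and 6. Same-numbered animals did not deviate together (r from -0.092 to 0.11, 1 of 6 controls correlating best with its own number), so the numbers were not taken as pairs; with the number as a block 536 probe sets, no member and no pathway gene were called. Ptpn4 passed without poly(I:C) 5 (adjusted p = 0.030) and among probe sets at or above the 50th percentile (0.048), Rasgrf2 without poly(I:C) 5 (0.029) and Exoc4 without poly(I:C) 2 (0.027). Tdo2, of the kynurenine list, also passed without poly(I:C) 2, and Nrg1, of the subunit exchange list, without control 4. The cause of these changes was not tested.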
